A study of Mus musculus with 15 samples.

Results

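The genes described here encode apolipoproteins, the protein components of plasma lipoproteins, together with factors that assemble or remodel these particles in liver. They were 10 genes (Apoa1, Apoa2, Apoa4, Apoa5, Apob, Apoc3, Apoe, Mttp, Lcat and Lipc), taken by name, and all probe sets annotated to them were used. The array annotation paired 15 probe sets with 9 of the 10 genes, out of 45101 probe sets and 18193 genes tested. No probe set is listed for Lipc, which encodes hepatic lipase, in the annotation used, so it was not analysed here.

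Hepatic mRNA was measured on 15 Affymetrix Mouse Genome 430 2.0 arrays from male C57BL/6J mice, 3 mice per group, that were 7 weeks old when they began 9 weeks of feeding. The HFGC group ate a high-fat diet with 2% unroasted green coffee (caffeinated), the HFDC group the high-fat diet with 2% decaffeinated coffee, and the HFCC group the high-fat diet with 2% caffeinated coffee. The HF group ate the high-fat diet without coffee and the ND group a normal diet. Fat supplied 60% of the energy of the high-fat diet, with or without coffee, and 10% of that of the normal diet. All coffee was given as freeze-dried powder, and no group received coffee on the normal diet.

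Apolipoprotein B is the scaffold of very-low-density lipoprotein (VLDL), and the microsomal triglyceride transfer protein encoded by Mttp loads it with lipid in the endoplasmic reticulum. Apolipoproteins A-I and A-II form high-density lipoprotein (HDL), whose cholesterol is esterified by the enzyme encoded by Lcat. Apolipoproteins A-IV, A-V and C-III influence the handling of triglyceride in plasma, and apolipoprotein E is a ligand for the uptake of remnant particles.

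The promoters of Mttp and Apoa4 are shown because these were the member genes whose mRNA differed between diets in the test across all genes, and that of Apoc2 because it was the other apolipoprotein gene whose level followed Apoa4 most closely. Each is the RefSeq sequence of mouse build GRCm38.p6 from 250 bases before to 50 bases after the start of the gene, 300 bases in all, on the strand of the gene. They lie at chr3:138143369-138143668 (minus strand, Mttp), chr9:46240594-46240893 (plus strand, Apoa4) and chr7:19677892-19678191 (minus strand, Apoc2). Capitals mark every match, on either strand, to 4 short motifs: the TATA box TATAAA, the nuclear receptor half-site AGGTCA, the hepatocyte nuclear factor 4 (HNF4) half-site CAAAGT and the cAMP response element half-site TGACG, of which the last appears as CGTCA when it lies on the opposite strand.
Mttp: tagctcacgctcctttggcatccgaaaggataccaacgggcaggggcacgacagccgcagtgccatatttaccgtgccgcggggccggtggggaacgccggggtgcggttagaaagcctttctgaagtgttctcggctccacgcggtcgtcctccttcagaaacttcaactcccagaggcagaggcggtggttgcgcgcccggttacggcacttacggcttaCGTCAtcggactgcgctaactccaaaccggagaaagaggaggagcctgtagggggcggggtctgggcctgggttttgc
Apoa4: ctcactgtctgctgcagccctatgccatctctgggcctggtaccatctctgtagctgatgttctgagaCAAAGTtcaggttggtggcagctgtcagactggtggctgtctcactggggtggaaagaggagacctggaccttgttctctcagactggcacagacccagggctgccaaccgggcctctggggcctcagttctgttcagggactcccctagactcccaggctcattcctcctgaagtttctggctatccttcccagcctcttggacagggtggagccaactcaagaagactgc
Apoc2: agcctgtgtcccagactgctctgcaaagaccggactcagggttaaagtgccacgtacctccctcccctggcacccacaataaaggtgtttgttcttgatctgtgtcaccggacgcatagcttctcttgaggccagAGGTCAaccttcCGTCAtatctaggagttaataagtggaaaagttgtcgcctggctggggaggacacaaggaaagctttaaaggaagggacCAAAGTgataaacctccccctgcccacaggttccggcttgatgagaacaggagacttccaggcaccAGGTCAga
The HNF4 half-site was present at -182 in Apoa4 and at -24 in Apoc2, and 14.4% of the 32851 mouse promoters of this length held it. The only match in the Mttp window was the cAMP response element half-site, at -28 and on the opposite strand, which 20.8% of all promoters held. Apoc2 carried the nuclear receptor half-site at -115 and 43, a motif found in 16.3% of promoters, and the cAMP response element half-site at -103. The TATA box, present in 13.6% of promoters, was in none of these 3 windows but in at least 1 promoter of Apob, Apoa2, Apoa5 and Apoe. It lay at -60 in Apob, at -212 in Apoa2 and at -31 and -56 in the 2 promoters of Apoa5. In Apoe it lay at -96 and, on the opposite strand, at -100. The shares count single promoters, whereas Apoa2, Apoa5 and Lipc have 2 each and Apoe has 3. Apoa2 and Lipc also held the nuclear receptor half-site, and Apoa2 the cAMP response element half-site. The promoter of Apoc3 was not analysed here. Such matches describe the sequence only.

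Among the 9 genes, Mttp and Apoa4 were lower in HF livers than in ND livers, and Apoa4 was also lower in HFGC and in HFCC livers than in ND livers. With limma and Benjamini-Hochberg adjustment over all genes, 2 of the 9 genes were called in HF against ND at an adjusted p under 0.05, both lower, where 13.5% of all genes were called and 4.63% were called lower. In HFGC against ND and in HFCC against ND the single member called was Apoa4, among 1.45% and 2.78% of all genes. None was called in HFDC against ND (0.533% of all genes), where 3 of the 9 reached an unadjusted p under 0.05, beside 14.2% of all genes. Against HF, no member was called in HFGC (3.09% of all genes), in HFDC (5.02%), in HFCC (1.64%) or in the 3 coffee groups together (10.3%), and an unadjusted p under 0.05 was reached by 1, 1, 1 and 0 of the 9, beside 20.6%, 22.7%, 18.4% and 25.5% of all genes. In HF against ND the arrays of the groups did not overlap for 6 of the 9 genes (26.5% of all genes). The count was 2 in HFGC (17.1%), 3 in HFDC (18%) and 3 in HFCC (20%) against ND, and 5 in HFGC (23%), 4 in HFDC (26.2%) and 3 in HFCC (21.5%) against HF. These shares of all genes varied with single arrays: without HF replicate 2, 2 genes of 18193 were called in HFGC, 5 in HFDC, 2 in HFCC and 4 in the combined coffee groups against HF, where the full data gave 563, 913, 298 and 1868. Without HF replicate 3 the counts were 2, 3, 8 and 64 in the same order, and without HF replicate 1 they were 1860, 2111, 1730 and 2738. Leaving out 1 array of the coffee group itself gave 40 to 117 genes in HFGC, 3 to 196 in HFDC and 5 to 14 in HFCC against HF. The count in HF against ND lay between 989 and 3132, beside 2465 in the full data. The shares also depended on which groups entered the fit. With only the groups compared, 9 genes were called in HFGC, 5 in HFDC and 14 in HFCC against HF. In that setting 2047 were called in the combined coffee groups against HF and 481 in HF against ND. The comparisons with HF share the 3 HF arrays and those with ND share the 3 ND arrays. The median absolute log2 difference of the 9 genes was 0.086 in HF against ND, beside 0.12 over all genes.

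**Figure D1:**
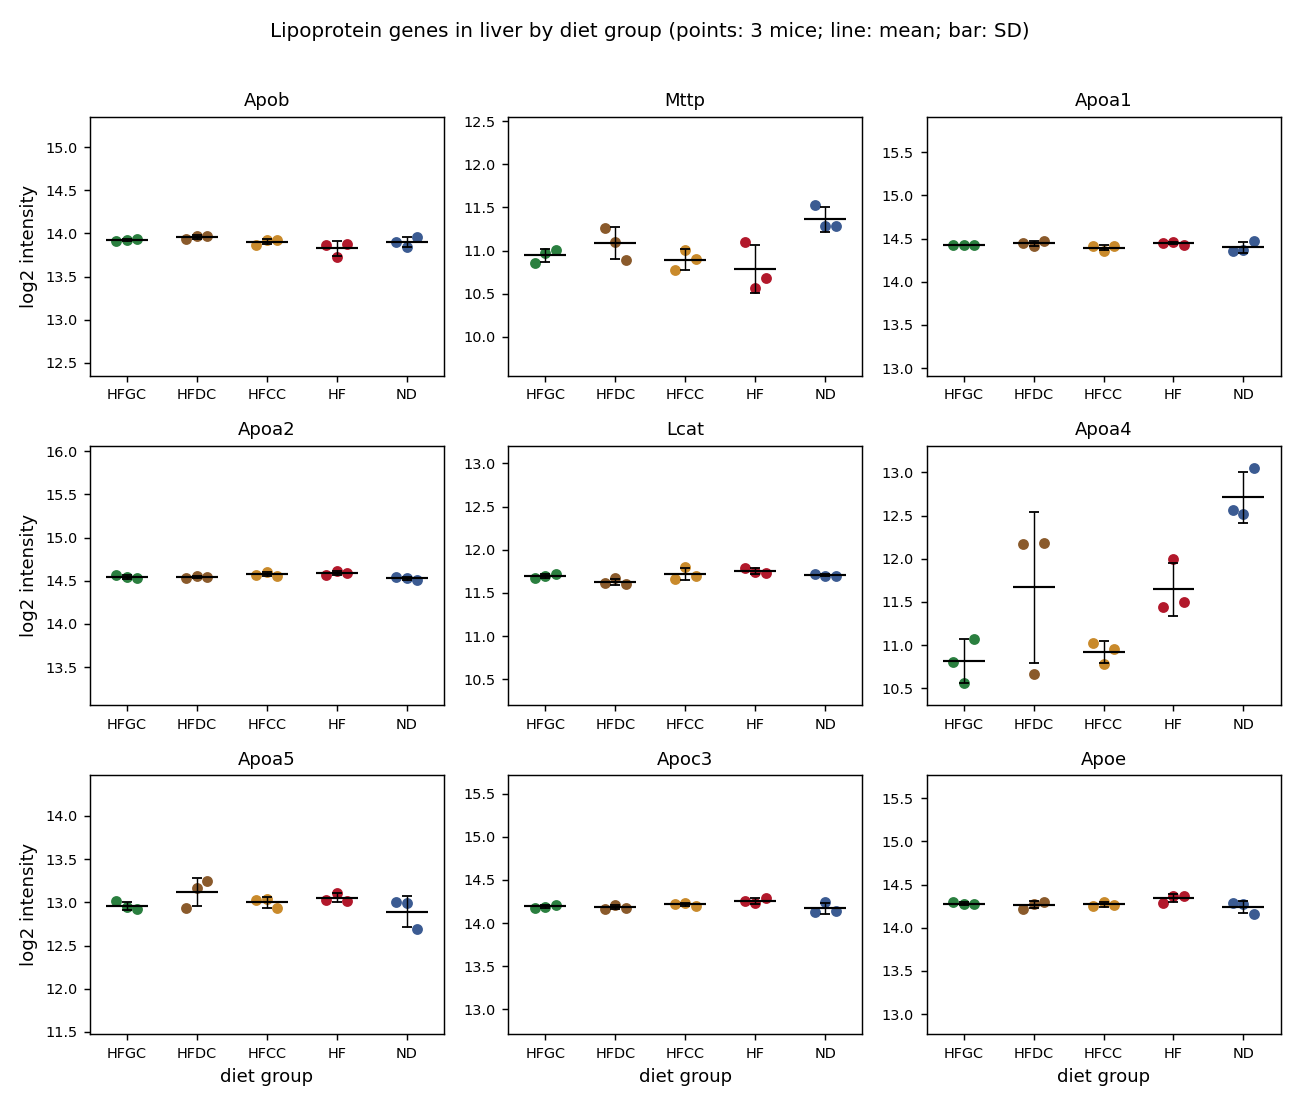
Log2 intensity of the 9 genes in each liver by diet group, 1 probe set per gene, with the mean (line) and SD (bar) of 3 mice. Every panel spans 3 log2 units. Apoa4 ranged over 2.49 log2 units and Mttp over 0.96, while Apoa2 ranged over 0.10.

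Overall signal was made comparable between arrays by the quantile normalisation of the deposited values. Correlations between arrays over all probe sets except controls were 0.9859 to 0.9967. The summed signal of 10 hepatocyte markers (Alb, Ttr, Hpx and others) lay between 17.09 and 17.20 on the log2 scale in every liver. RNA integrity, read as the mean log2 difference between 3' and 5' control probe sets of Gapdh and Actb, differed between groups. It averaged 0.824 ± 0.110 in HFGC, 0.927 ± 0.114 in HFDC, 0.926 ± 0.125 in HFCC, 1.22 ± 0.168 in HF and 0.875 ± 0.0634 in ND livers (SD, n = 3 each), and all 3 HF arrays lay above all ND arrays. With this value as a term in the fit, 0 of 18193 genes were called in any coffee comparison with HF and 14 in HF against ND. Of 8 stellate cell markers, 3 were higher in HF than in ND livers (Pdgfrb 0.75, Col3a1 0.70 and Reln 0.52, limma adjusted p of 0.0032, 0.0113 and 0.0156), where 8.92% of all genes were called higher. Their summed level was 11.87 to 12.17 in HFGC, 11.83 to 12.22 in HFDC, 12.10 to 12.15 in HFCC, 11.89 to 12.24 in HF and 11.72 to 11.90 in ND livers. Of 3 erythroid markers measured of 4, Alas2 was higher in HF than in ND livers (0.43, adjusted p = 0.0184), and the summed level was 10.06 to 10.41 in HF and 9.79 to 10.12 in ND livers. Leaving out 1 array lost the Reln call in 2 of 15 fits and the Alas2 call in 3. With RNA integrity as a term, none of Pdgfrb, Col3a1, Reln and Alas2 passed (limma adjusted p of 0.114, 0.252, 0.173 and 0.46). The part of stellate and erythroid cells in the HF differences was not tested. In whole liver, fewer cells of a type cannot be told apart from less RNA per cell.

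Mttp, whose product transfers lipid onto nascent apolipoprotein B, was lowest in HF and highest in ND livers. Its log2 intensity was 10.86, 10.97 and 11.01 in HFGC livers, 11.26, 11.10 and 10.89 in HFDC livers, 10.77, 11.01 and 10.90 in HFCC livers, 11.10, 10.57 and 10.68 in HF livers, and 11.53, 11.28 and 11.28 in ND livers. Every ND liver was above every liver of the other 4 groups. HF livers averaged 10.78 ± 0.278 and ND livers 11.36 ± 0.147 (SD, n = 3 each), a log2 fold change of -0.58 (SE 0.128, 0.668-fold, limma adjusted p = 0.0104). The second Mttp probe set, 1419399_at, gave -0.59 in HF against ND (SE 0.111, limma adjusted p = 0.00621 over all probe sets, of which 10.3% were called). The coffee groups lay between HF and ND in mean level. Mttp differed by -0.42 in HFGC against ND (limma adjusted p = 0.131), by -0.28 in HFDC against ND (adjusted p = 0.342) and by -0.47 in HFCC against ND (adjusted p = 0.0661). The second probe set was called lower in HFGC against ND (-0.53, limma adjusted p = 0.0361, 0.966% called) and in HFCC against ND (-0.56, adjusted p = 0.0198, 1.85% called). Against HF, Mttp differed by 0.17 in HFGC, by 0.30 in HFDC (95% interval 0.03 to 0.58, limma adjusted p = 0.179) and by 0.11 in HFCC.

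The HF call for Mttp was lost without HF replicate 2 (-0.48, limma adjusted p = 0.0545), the HF array with the highest 3' minus 5' value, with only the groups compared in the fit (-0.58, adjusted p = 0.0626), and in a fit that carried this value as a term (-0.37, adjusted p = 0.344). Across the 15 arrays Mttp correlated with the 3' minus 5' value with r = -0.52 and rho = -0.45, and the part of RNA integrity in the result was not separated further. Without HF replicate 1, the HF array with the highest Mttp, the gene was called higher in HFDC than in HF livers (0.46, adjusted p = 0.0202), and likewise with the 3 coffee groups combined (0.35, adjusted p = 0.0274).

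Apob, which encodes the VLDL scaffold, has 2 probe sets, and these behaved differently. On the brighter one, 1455593_at, the log2 intensity was 13.91 to 13.93 in HFGC, 13.93 to 13.97 in HFDC, 13.87 to 13.92 in HFCC, 13.73 to 13.88 in HF and 13.84 to 13.96 in ND livers. These values stood 1.02 log2 units below the brightest signal of the arrays. The largest difference was 0.13 in HFDC against HF (SE 0.061, limma adjusted p = 0.23), and Apob was not called in any comparison on this probe set. It correlated with the 3' minus 5' value with r = -0.71 and rho = -0.41 over the 15 arrays.

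On the dimmer Apob probe set, 1457554_at, HFGC and HFDC livers lay below HF livers and HFCC livers did not separate from them. Its log2 intensity was 8.56, 8.39 and 7.92 in HFGC livers, 8.86, 8.51 and 8.36 in HFDC livers, 9.06, 9.11 and 8.99 in HFCC livers, 9.37, 9.32 and 9.04 in HF livers, and 8.92, 9.07 and 9.34 in ND livers. The values of HFCC and HF livers overlapped. The log2 fold change was -0.95 in HFGC against HF (SE 0.161, limma adjusted p = 0.0164 over 45037 probe sets, of which 2.58% were called) and -0.67 in HFDC against HF (SE 0.161, adjusted p = 0.0424, 2.72% called), and -0.19 in HFCC against HF (95% interval -0.54 to 0.15, adjusted p = 0.645). It was -0.60 in the coffee groups together against HF (adjusted p = 0.0169, 7.24% called) and -0.82 in HFGC against ND (adjusted p = 0.0289, 0.966% called). The brighter probe set had the opposite sign in both coffee comparisons, 0.09 and 0.13. When RNA integrity entered the fit as a term, none of these calls against HF held (-0.51 in HFGC, -0.34 in HFDC and -0.24 together), a setting at which no gene at all was called in these comparisons, and leaving out 1 array at a time also lost calls. That in HFGC against HF was lost without HF replicate 2 or HFGC replicate 3 (limma adjusted p = 0.0967 and 0.0588), and that in the combined groups without HF replicate 2 or 3 (0.13 and 0.0537). In HFGC against ND it was lost without ND replicate 3 or HFGC replicate 2 or 3, and in HFDC against HF in 10 of 15 fits (without HFDC replicate 2 or 3, HFGC replicate 2, ND replicate 2, or any HFCC or HF array). Averaging both probe sets gave -0.43 in HFGC against HF (adjusted p = 0.0333). The transcript region that each probe set reads was not examined here.

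**Figure D2:**
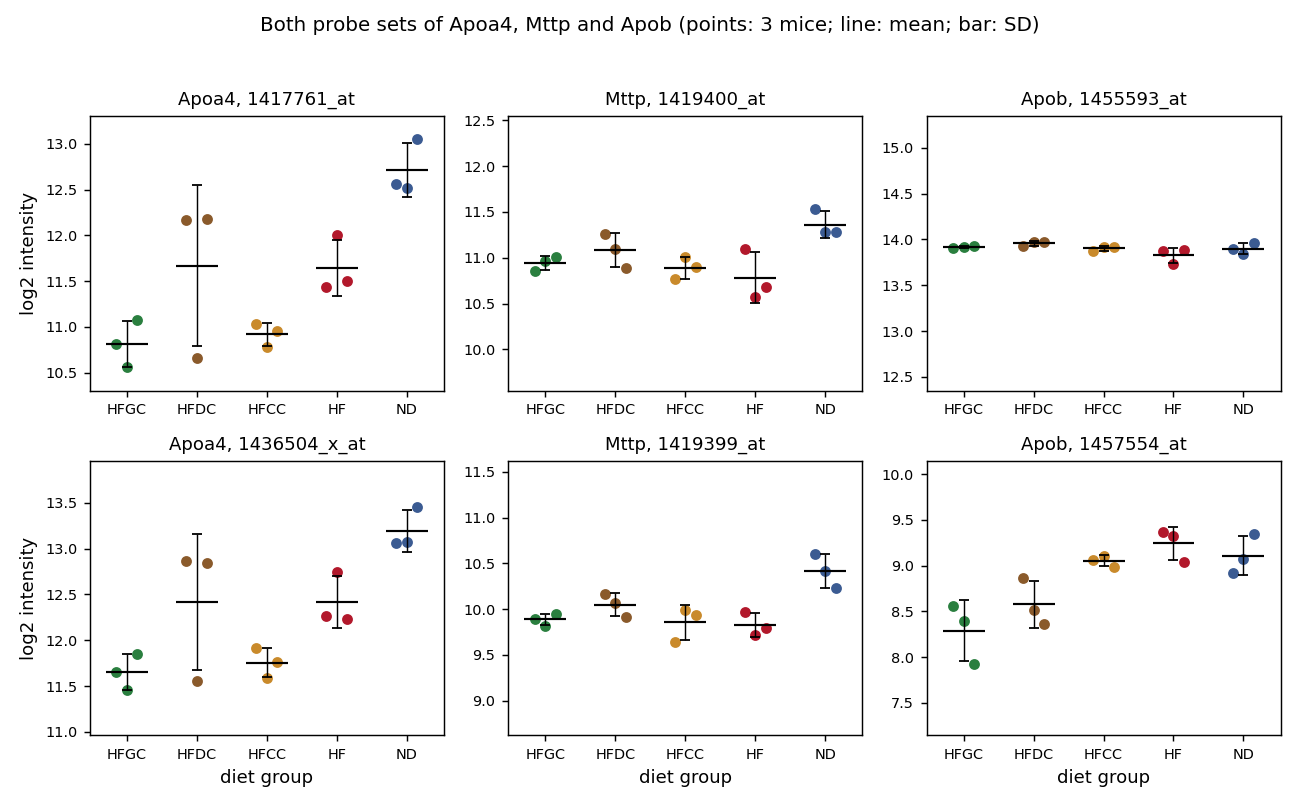
Log2 intensity of both probe sets of Apoa4, Mttp and Apob in each liver, with the mean (line) and SD (bar) of 3 mice; every panel spans 3 log2 units. The probe sets of Apoa4 and of Mttp ran alike, whereas only the dimmer Apob probe set, 1457554_at, was lower in HFGC (7.92 to 8.56) than in HF livers (9.04 to 9.37).

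The HDL genes showed no called difference. Apoa1, the main HDL protein, lay between 14.35 and 14.47 in all 15 livers, and Apoa2 between 14.51 and 14.61. Lcat, which esterifies cholesterol on HDL, lay between 11.60 and 11.80. In HF against ND, Apoa1 differed by 0.05 (95% interval -0.07 to 0.17), Apoa2 by 0.06 (-0.05 to 0.18) and Lcat by 0.05 (-0.08 to 0.17), with limma adjusted p of 0.607, 0.468 and 0.633. The largest difference among these 3 genes was Lcat in HFDC against HF, with 11.62, 11.67 and 11.60 in HFDC livers and 11.79, 11.74 and 11.73 in HF livers. The groups did not overlap, and the difference of -0.12 had a limma adjusted p of 0.224. The Apoa1 and Apoa2 probe sets were within 0.50 log2 units of the brightest signal of the arrays, and the 3 further Apoa1 probe sets ranged by 0.10 to 0.12 across all livers. Over all 18193 genes the median range was 0.47, and over the 27 genes at least as bright as Apob it was 0.17.

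Apoa4, the apolipoprotein of chylomicrons and HDL that also circulates free, varied most. Its log2 intensity was 10.81, 10.56 and 11.07 in HFGC livers, 12.17, 10.66 and 12.18 in HFDC livers, 11.03, 10.78 and 10.95 in HFCC livers, 11.44, 12.00 and 11.50 in HF livers, and 12.56, 12.52 and 13.05 in ND livers. Every ND liver exceeded every liver on the high-fat diet, with or without coffee. All HFGC and HFCC livers were below all HF livers, and in the HFDC group replicate 2 was as low as the HFGC livers while the other 2 were above all HF livers. In linear intensity the group means were 1820 in HFGC, 3620 in HFDC, 1940 in HFCC, 3260 in HF and 6800 in ND livers.

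Against ND, the log2 fold change of Apoa4 was -1.90 in HFGC (SE 0.309, 0.269-fold, limma adjusted p = 0.00839), -1.04 in HFDC (adjusted p = 0.138), -1.79 in HFCC (0.289-fold, adjusted p = 0.00733) and -1.06 in HF (0.479-fold, adjusted p = 0.0347). Against HF it was -0.84 in HFGC (95% interval -1.49 to -0.18, limma adjusted p = 0.136), 0.02 in HFDC (-0.64 to 0.68, adjusted p = 0.979) and -0.73 in HFCC (-1.39 to -0.07, adjusted p = 0.216). Ordered by mean, the groups ran HFGC, HFCC, HF, HFDC and ND, and no pair of neighbours in that order passed the test. The second probe set, 1436504_x_at, gave -1.55 in HFGC against ND and -1.45 in HFCC against ND (limma adjusted p = 0.0129 and 0.0125), but its -0.79 in HF against ND had an adjusted p of 0.0688.

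The Apoa4 calls differed in how far they held. The call in HFCC against ND held in all 15 fits that left out 1 array (adjusted p at most 0.0372), and that in HFGC against ND was lost only without HFGC replicate 2 (adjusted p = 0.0542). The call in HF against ND was lost without any 1 of the 3 HF or 3 ND arrays (adjusted p between 0.0507 and 0.115) and with RNA integrity as a term (-1.55, adjusted p = 0.142). With that term the difference was larger than without it (-1.06), and its SE was 0.441 beside 0.309. Apoa4 correlated with the 3' minus 5' value with r = 0.17 and rho = 0.01 over the 15 arrays. The call in HF against ND was also lost with an offset of 32 (adjusted p = 0.0542), with a trended robust variance (adjusted p = 0.0742) and with averaged probe sets (adjusted p = 0.0541). Without HFDC replicate 2, Apoa4 was called lower in HFGC than in HF livers (-0.84, adjusted p = 0.0347) and higher in HFDC than in HFCC livers (1.26, adjusted p = 0.0411).

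**Figure D3:**
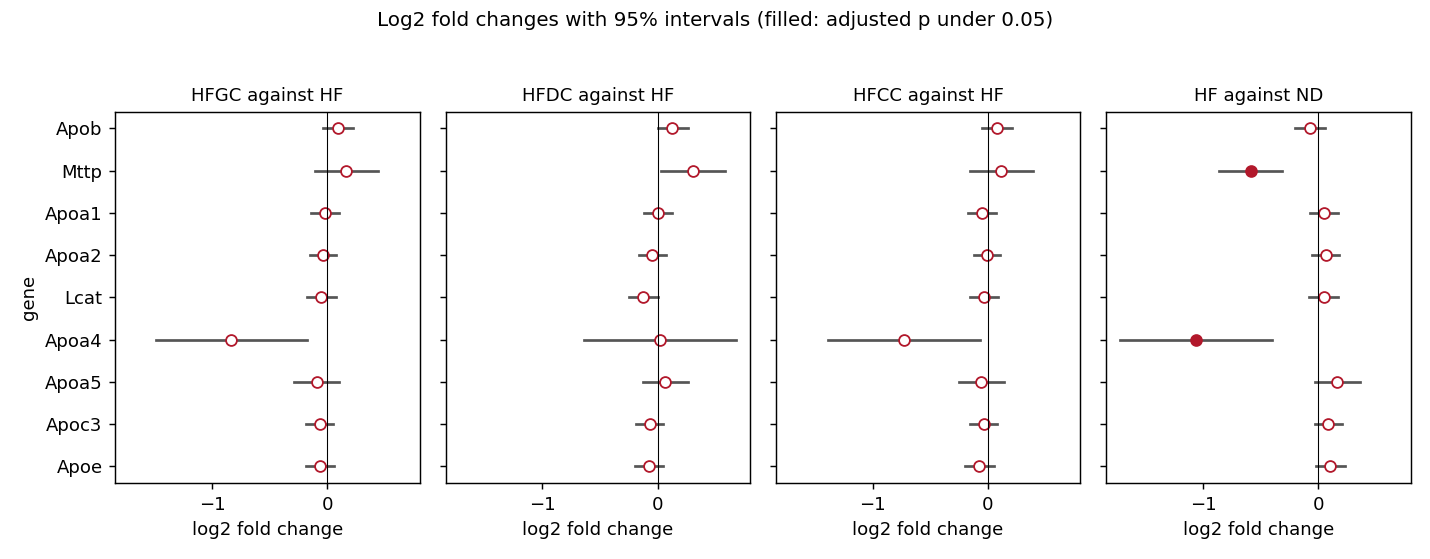
Log2 fold change of each gene with its 95% interval in HFGC, HFDC and HFCC against HF and in HF against ND; filled points had an adjusted p under 0.05 over all genes. Only Mttp (-0.58) and Apoa4 (-1.06) in HF against ND were called, and the Apoa4 intervals in HFGC and HFCC lay below 0 without passing the adjustment.

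Because apolipoprotein A-IV is made abundantly in intestine, an enterocyte list was read beside it. Vil1, Lct, Krt20 and Cdh17 were dim in every group, with group means between 3.54 and 5.08, whereas Fabp2, which liver also expresses, was bright. The summed level of the 5 measured genes of this list was 11.60 to 11.64 in HFGC, 11.78 to 12.03 in HFDC, 11.46 to 11.73 in HFCC, 11.76 to 11.91 in HF and 11.83 to 12.13 in ND livers, and it was carried by Fabp2. Cdh17 was lower in HF (3.54) than in ND livers (3.96), by -0.41 on the log2 scale (limma adjusted p = 0.00653). Fabp2 was lower in HFCC than in ND livers (-0.39, limma adjusted p = 0.0422), a call lost in 10 of 15 fits that left out 1 array. Across the 15 arrays it correlated with Apoa4 with r = 0.72 and rho = 0.68; the part of these genes in the result was not tested.

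The other triglyceride-related genes did not pass the test. Apoa5, which promotes lipolysis of triglyceride-rich particles, lay between 12.92 and 13.01 in HFGC, 12.94 and 13.25 in HFDC, 12.93 and 13.04 in HFCC, 13.02 and 13.11 in HF, and 12.69 and 13.00 in ND livers. Its largest difference was 0.23 in HFDC against ND (95% interval 0.03 to 0.42, limma adjusted p = 0.276), where the groups overlapped, and it was 0.16 in HF against ND (adjusted p = 0.262). Apoc3, an inhibitor of lipolysis that lies between Apoa1 and Apoa4 on chromosome 9, ranged from 14.13 to 14.29. Its difference was 0.09 in HF against ND (limma adjusted p = 0.331) and between -0.07 and -0.04 in the 3 coffee groups against HF. Apoa1, Apoc3, Apoa4 and Apoa5 are neighbours on chromosome 9, and of these 4 genes Apoa4 was the only one called.

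Apoe ranged from 14.16 to 14.37. Its level was 14.29, 14.37 and 14.37 in HF livers and 14.29, 14.27 and 14.16 in ND livers, a difference of 0.11 (95% interval -0.02 to 0.23, limma adjusted p = 0.254). In HFGC, HFDC and HFCC against HF it was -0.07, -0.08 and -0.08. Macrophages also express Apoe, and the summed level of the 10 Kupffer cell and macrophage markers was 12.40 to 12.82 in HFGC, 12.68 to 12.93 in HFDC, 12.39 to 13.37 in HFCC, 12.76 to 12.88 in HF and 12.18 to 12.80 in ND livers, none of the 10 markers being called in any comparison. Over the 15 arrays the levels of Apoe and Apoa5 correlated with r = 0.69 and rho = 0.71, and those of Apoe and Apoa2 with r = 0.76 and rho = 0.65. These arrays share the diet groups, and the values are descriptive.

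No member was called between coffee groups. Apoa4 differed by -0.10 in HFGC against HFCC, by -0.86 in HFGC against HFDC (limma adjusted p = 0.573) and by 0.75 in HFDC against HFCC (adjusted p = 0.56). Across all genes, 0%, 0.0385% and 0.0934% were called in these comparisons in the same order.

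The 5 genes whose levels followed Apoa4 most closely over the 15 arrays, among 9096 genes at or above the median level, were Tspan31 (r = 0.87, rho = 0.85), 2010003K11Rik (r = 0.85, rho = 0.82), Fuom (r = 0.85, rho = 0.87), Apoc2 (r = 0.83, rho = 0.84) and Irf2 (r = 0.83, rho = 0.87). Apoc2 encodes the cofactor of lipoprotein lipase and lies beside Apoc4, Apoc1 and Apoe on chromosome 7. Its log2 intensity was 12.24, 12.27 and 12.43 in HFGC livers, 12.45, 12.35 and 12.61 in HFDC livers, 12.17, 12.37 and 12.33 in HFCC livers, 12.63, 12.64 and 12.63 in HF livers, and 12.67, 12.92 and 12.75 in ND livers. All coffee-fed livers were below all HF and ND livers. Apoc2 was lower in HFGC than in ND (-0.46, limma adjusted p = 0.0189), in HFCC than in ND (-0.49, adjusted p = 0.00895) and in the combined coffee groups than in HF (-0.28, adjusted p = 0.0256). The last call was lost without HF replicate 2 or 3 (highest adjusted p 0.136) and with RNA integrity as a term (-0.39, adjusted p = 0.409). That in HFGC against ND was lost without HFGC replicate 1 or 2, and that in HFCC against ND without HFCC replicate 1, while both passed with RNA integrity as a term (adjusted p = 0.0156 and 0.0127). Apoc2 did not pass in HF against ND (-0.15, limma adjusted p = 0.288). Since Apoc2 was picked by its correlation with Apoa4 over these same arrays (0.38 within groups), its calls are not independent of those of Apoa4.

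**Figure D4:**
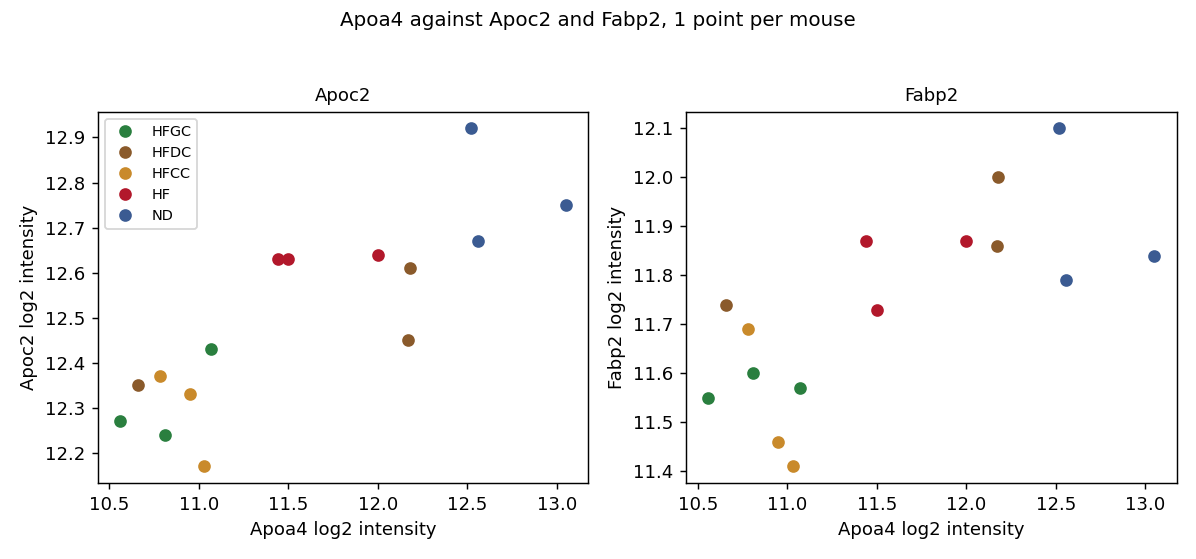
Log2 intensity of Apoc2 (left) and Fabp2 (right) against that of Apoa4, 1 point per liver, coloured by diet group. HFGC livers lay at Apoa4 of 10.56 to 11.07 and Apoc2 of 12.24 to 12.43, and ND livers at Apoa4 of 12.52 to 13.05 and Apoc2 of 12.67 to 12.92.

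Mttp was followed most closely by Hopx (r = 0.94, rho = 0.87), Etfdh (r = 0.92, rho = 0.92), Arid1a (r = 0.92, rho = 0.88), Secisbp2l (r = 0.91, rho = 0.95) and Cycs (r = 0.91, rho = 0.85). Within groups, that is after subtracting group means, these correlations were 0.76 to 0.89, and those of the Apoa4 list were 0.30 to 0.67. Both lists were picked by correlation over these same arrays, which includes the deviations within groups, so these ranges are no separate check. Among HF livers, Mttp and all the genes listed with it were highest in replicate 1 and lowest in replicate 2. These HF arrays had the lowest and the highest RNA integrity value (1.08 and 1.4). The part of RNA integrity in these correlations was not tested.

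Around the member genes, lists of related genes were counted, and their counts in HF against ND stand beside 8.92% of all genes called higher and 4.63% called lower. Of the 26 list genes called in HF against ND, 9 passed in all 15 fits that left out 1 array. Among the genes named below, these were Fitm1, Lrp1, Stab2, Lmf1, Abca1, Ppara and Cebpb. The calls of Angptl4, Sec24a, Lipg and Scarb1 in HF against ND were lost in 2, 4, 6 and 7 of the 15 fits. With RNA integrity as a term 0 of the 26 passed, where 14 of 18193 genes did. All HF arrays lay above all ND arrays in that value, so this fit cannot separate it from diet. With the term, Fitm1 differed by 1.513 beside 1.522 without it, and Lmf1 by 0.845 beside 0.809. Ppara differed by 0.525 beside 0.921, and Angptl4 by 0.926 beside 1.491. Of the list genes called against HF, 8 in HFGC, 16 in HFDC, 5 in HFCC and 24 in the combined coffee groups, none passed without HF replicate 2 or with RNA integrity as a term, and without HF replicate 3 only Foxo1 and Pltp did, both in the combined groups. These limits hold for each gene named below against HF. Of 14 genes measured of 17 on a list of other apolipoproteins, 3 were higher in HF than in ND livers and none was lower. These were Saa4 (0.60), Apol7a (0.57) and Apobr (0.26), with limma adjusted p of 0.0456, 0.0117 and 0.0417. Apobr encodes a receptor of apolipoprotein B, not an apolipoprotein, and was also counted among the receptor genes below. The calls of Saa4 and Apobr were each lost in 10 of the 15 fits that left out 1 array, and that of Apol7a in 1. The median log2 difference of the list was 0.05 beside -0.002 over all genes. Of 30 VLDL assembly and secretion genes, 6 were higher and 1 lower in HF than in ND livers. Fitm1, which acts in lipid droplet formation, was higher by 1.52 (SE 0.204, adjusted p = 0.00101), and the COPII coat gene Sec24a lower by 0.44 (log2 fold change -0.44, adjusted p = 0.0262).

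In HFDC against HF the COPII genes Sec24d (0.80, limma adjusted p = 0.04) and Sec24a (0.47, adjusted p = 0.0395) were higher, and Dgat1 (-0.43, adjusted p = 0.0341) and Dgat2 (-0.34, adjusted p = 0.0305), which make triglyceride, were lower. In HFGC and in HFCC against HF none of the 30 genes was called. In the coffee groups together against HF 4 were higher and 3 lower, beside 3.39% of all genes higher and 6.88% lower. In HFDC against HF 1.31% of all genes were higher and 3.7% lower, and the 4 calls named here were lost in 5 to 8 of the 15 fits that left out 1 array.

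Of 17 receptor and clearance genes measured of 20, 5 were higher in HF than in ND livers, among them Stab2 (0.49), Lrp1 (0.42) and the HDL receptor gene Scarb1 (0.32, limma adjusted p = 0.042). Scarb1 was lower in HFGC than in HF livers (-0.47, adjusted p = 0.0271), and Stab2 and Stab1, scavenger receptors of liver endothelium, were lower in HFGC (-0.40 and -0.37) and in HFDC (-0.39 and -0.32) than in HF livers. Of 6 endothelial markers, which include Stab2, 1 was called higher in HF against ND, and 1 lower in HFGC and in HFDC against HF. In each case this was Stab2 itself, so these counts add no gene to those above. Of all genes, 8.92% were called higher in HF against ND, and 2.31% and 3.7% lower in HFGC and in HFDC against HF. The summed level of the 6 markers was 11.21 to 11.33 in HFGC, 11.26 to 11.37 in HFDC, 11.08 to 11.33 in HFCC, 11.24 to 11.39 in HF and 10.91 to 11.32 in ND livers.

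Of 19 plasma lipase and remodelling genes measured of 22, 5 were higher and 1 lower in HF than in ND livers. Angptl4, an inhibitor of lipoprotein lipase, was higher by 1.49 (SE 0.385, limma adjusted p = 0.0205), Lmf1 by 0.81 and Lipg by 0.79, and the cholesterol exporter gene Abca1, named after its value was seen, was the lower one (-0.50, adjusted p = 0.009). In HFDC against HF, Abca1 was higher (0.41, adjusted p = 0.0422) and Pltp, the phospholipid transfer protein, was lower (-0.67, adjusted p = 0.0343). None of the 19 was called in HFGC or in HFCC against HF.

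Of 30 transcriptional regulators measured of 33, 6 were higher in HF than in ND livers, led by Ppara (0.92, limma adjusted p = 0.00157) and Cebpb (0.61, adjusted p = 0.00264), and none was lower. Ppara, a fatty acid sensor, was lower in HFGC (-0.79, adjusted p = 0.0161), in HFDC (-0.54, adjusted p = 0.0368) and in HFCC (-0.64, adjusted p = 0.0365) than in HF livers. Against HF, 5 of the 30 were lower in HFGC, 4 in HFDC and 5 in HFCC, beside 2.31%, 3.7% and 1.26% of all genes called lower, and Foxa1 was higher in HFDC (0.80, adjusted p = 0.0428). Foxo1 was also among the lower ones in each coffee group. These contrasts share the HF arrays, whose 3' minus 5' value was the highest, and with that value as a term Ppara differed by -0.33 in HFGC, by -0.21 in HFDC and by -0.31 in HFCC (limma adjusted p of 0.592, 0.543 and 0.539).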

How the data were processed

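Total RNA from mouse liver was labelled and hybridised to Affymetrix arrays, and the deposited intensities, which are linear, were obtained by the authors with RMA (robust multi-array average), which corrects background, normalises between arrays by quantiles and summarises probes. No software version or array test of the authors is given in the sources used here. Values were converted to log2. Of 45101 probe sets, 64 controls were left out, 34958 had 1 gene symbol and 932 had several, which named no gene; 34754 matched a gene record (GRCm38.p6). The brightest probe set stood for each gene (an _x_at set only where there was no other), giving 18193 genes. Replicates are separate mice by the labels, and no 2 arrays were duplicates.

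One model with 5 group means over all 15 arrays (10 residual degrees of freedom) was fitted with limma 3.58.1 in R 4.3.3, adjusted by Benjamini-Hochberg over all genes, and called at 0.05. The same fit on all 45037 probe sets compared probe sets of a gene. The number of arrays limits the precision: the median SE of a difference was 0.0918. On simulated data with 200 genes changed by 1.5-fold in HF against ND, 79.5% were recovered. That rate covers genes of all spreads and does not hold for Apoa4, whose SE was 0.309. The genes and lists were chosen with earlier results of these data known. Besides the member genes, the text names the 5 genes most correlated with each called member. It also names some list members that passed, not always those with the largest change. In HFDC against HF, for instance, Nr1i3 (-0.70), Gpihbp1 (-0.43) and Gpld1 (-0.42) also passed and are not named above. Apoc2 is also named beside its promoter, and Fabp2 as a marker, both after their values were seen. Alternatives were averaged probe sets, all probe sets, a filter on dim genes, cyclic loess, an offset of 32, only the groups compared, a replicate block, a trended robust variance, RNA integrity (the 3' minus 5' value) as a term, and leaving out each array. Figures used Python 3.11.15 and matplotlib 3.10.9.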

Additional observations from a re-analysis of the deposited data

How the results depend on the processing

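Of the values followed, 955 kept direction and side of the threshold, 40 lost and 9 gained the call, and 33 changed sign, of which 3 (Apob with averaged probe sets) are among the 9; the cause was not tested. In HF against ND the count of genes called was 1 in place of 2 with an offset of 32, with a trended robust variance and with averaged probe sets, which lost Apoa4, and with only the groups compared, which lost Mttp. It was 0 with the 3' minus 5' covariate, which also left 0 probe sets. The count of probe sets in HFDC against HF was 0 with cyclic loess, the offset, only the groups compared and the covariate. In HFGC against HF it was 0 with only the groups compared and with the covariate, and in the coffee groups together 0 with the covariate. In HFGC against ND it was 2 with the offset and with only the groups compared. Averaged probe sets gave 1 gene called (Apob) in HFGC and in the coffee groups together against HF, and 2 in HFGC and in HFCC against ND.

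Averaging reversed Apob to -0.43 in HFGC, -0.27 in HFDC, -0.058 in HFCC and -0.25 in the coffee groups together against HF, to -0.40, -0.24, -0.028 and 0.03 in HFGC, HFDC, HFCC and HF against ND, and to -0.37 in HFGC and -0.21 in HFDC against HFCC. The covariate reversed Apob to 0.008 in HF against ND, to -0.001 in HFGC against HF and to -0.008 in HFGC against HFCC; Mttp to -0.079 in HFGC, -0.069 in HFCC and -0.009 in the coffee groups together against HF and to -0.01 in HFGC against HFCC; Apoa4 to 0.041 in HFGC against HFCC; and probe set 1457554_at to -0.26 in HF against ND and 0.14 in HFCC against HF. Cyclic loess reversed Apob to -0.011 in HFCC against ND.

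Leaving out each array gave 0 to 2 genes and 1 to 4 probe sets called in HF against ND, 0 to 1 genes in HFGC, HFDC and the coffee groups together against HF, with 0 to 3, 0 to 1 and 0 to 2 probe sets, 0 to 1 genes and 0 to 4 probe sets in HFGC against ND, 1 to 2 genes and 2 to 4 probe sets in HFCC against ND, and 0 to 1 genes in HFDC against HFCC. Apob ranged from -0.026 to 0.033 in HFCC against ND, from -0.01 to 0.05 in HFGC against ND and from -0.001 to 0.027 in HFGC against HFCC, Mttp from -0.01 to 0.11 and Apoa4 from -0.23 to 0.024 in HFGC against HFCC, Apoa4 from -0.24 to 0.53 in HFDC against HF, and probe set 1457554_at from -0.16 to 0.057 in HFCC against ND.

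The replicate numbers gave no sign of pairing the arrays. Correlations of deviations were -0.28 to 0.23 between arrays of the same number and -0.22 to 0.31 between arrays of other numbers. Of the 15 arrays, 6 correlated best with their own number. With 3 arrays per group this check is weak and cannot exclude pairing. The replicate block left 2 genes called in HF against ND (Apoa4 -1.06) and changed no call of a member gene. The Apob, Apoa1, Apoa2, Apoc3 and Apoe probe sets used per gene lay within 1.02 log2 units of the top of the intensity scale, and whether signal there still follows RNA amount was not tested.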
